A study of Mus musculus with 6 samples.

Results

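The nuclear genes examined here encode the core factors that copy, package and transcribe mitochondrial DNA (mtDNA). They were the 10 genes *Polg*, *Polg2*, *Twnk*, *Ssbp1*, *Mgme1*, *Top1mt*, *Polrmt*, *Tfam*, *Tfb2m* and *Tfb1m*, found by gene name among the 51499 loci of a count table. Each of the 10 matched 1 locus, and all 10 were among the 14499 loci with enough counts to be tested. Poly(A) RNA was sequenced from wild-type (WT) mouse embryonic fibroblasts (MEFs) collected 72 h after transfection with a control siRNA (Scr siRNA, n = 3 cultures) or with siRNA against *Yme1l* (Yme1l siRNA, n = 3 cultures). The target, *Yme1l1* in the count table, encodes a protease of the mitochondrial inner membrane. Both groups were transfected, and both carry the same genotype, which the study's methods give as *Yme1l* loxP/loxP in cells grown from individual clones and immortalized with SV40 large T antigen. The sample labels instead name 3T3 immortalization, and which description holds was not tested. The sources do not say whether the cultures of a group were transfected on separate days, so p-values measure the spread between these cultures.

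Mammalian mtDNA is a small circle without histones that is coated by TFAM and held in nucleoids at the inner membrane. TFAM and TFB2M place the mitochondrial RNA polymerase POLRMT on the mtDNA promoters, and short transcripts made by POLRMT prime DNA synthesis. The replisome then consists of the helicase TWNK, the polymerase POLG with its accessory subunit POLG2, and the single-strand binding protein SSBP1. MGME1 is an exonuclease that trims DNA ends during replication, and TOP1MT relaxes supercoils. All of these proteins are made from nuclear genes and imported, so the levels of their mRNAs are read here from nuclear transcripts.

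Many nuclear genes of mitochondrial proteins carry short promoter elements bound by factors such as the ETS-family protein GABPA. RefSeq promoters of build GRCm38.p6 were listed for 9 of the 10 genes, as 250 bases before and 50 after the start, with an extra promoter for *Twnk*. *Top1mt* has no promoter in that table. The letters CCGGAAG, a core of ETS-factor sites searched on both strands, occurred in 6 of these 10 promoters, from 6 of the 9 genes. They occurred in 8.86% of all 32851 listed promoters, and no comparison was made with promoters of expressed genes alone. The extra *Twnk* promoter held none of the motifs searched here. These windows of 30 bases are shown because most of these genes share the motif, with it, or its reverse complement CTTCCGG, in capitals. All are written 5′ to 3′ along the gene's own strand. Positions give the first base of the motif, counted from 1 at the RefSeq start, with bases before it negative. For some genes, *Tfam* and *Twnk* among them, this start lies inside the GENCODE gene limits given further below.
Tfam, chr10:71238073-71238102, minus strand, position -47: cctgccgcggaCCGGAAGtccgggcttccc
Ssbp1, chr6:40471410-40471439, plus strand, position -47: ggctccgtgcgCCGGAAGcgagccgctggc
Polg, chr7:79466293-79466322, minus strand, position -38: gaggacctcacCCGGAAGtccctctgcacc
Polg2, chr11:106779548-106779577, minus strand, position -29: cgggtgacgctCTTCCGGgggcgtggtcta
Polrmt, chr10:79746606-79746635, minus strand, position -43: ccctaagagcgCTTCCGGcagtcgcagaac
Twnk, chr19:45006437-45006466, plus strand, position -110: ctaaccggtgaCTTCCGGttccggggttgt
Twnk, chr19:45006481-45006510, plus strand, position -66: ggagagttttgCTTCCGGagtcaccgcgag
In *Tfam*, *Ssbp1*, *Polg*, *Polg2* and *Polrmt* the motif lay within 50 bases of the RefSeq start, while *Twnk* held it at positions -110 and -66. The promoters of *Mgme1*, *Tfb1m* and *Tfb2m* did not hold these letters within the same stretch. Those of *Mgme1* and *Tfb2m*, the genes with the largest rise and the only fall below, held other motifs, shown here for comparison.
Mgme1, chr2:144270827-144270856, plus strand, position -66, YY1 motif AAGATGGC: agccagagtccAAGATGGCgagcggcggtg
Tfb2m, chr1:179546304-179546333, minus strand, position -45, SP1 motif GGGCGG: acaggagcctggGGGCGGagcctaggcgga
The YY1 letters were found in 1 of the 9 genes and in 2.75% of all listed promoters. The SP1 letters, which are short and common in GC-rich promoters, were found in 6 of the 9 genes and in 35.7% of all listed promoters. The full palindrome of the NRF1 motif was found in none of the member promoters and in 0.971% of all. With its 2 central bases left open, it was present in *Polrmt* and *Mgme1* and in 6.23% of all, and the E-box CACGTG in none of the members and in 7.15% of all. Such matches describe letters in a window and are not evidence of binding.

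The libraries held between 37260605 and 45205207 counts, and levels are given as CPM, counts relative to the TMM-scaled library size. In the Scr cultures *Yme1l1* stood at 171 ± 0.425 CPM (SD, n = 3) and in the Yme1l siRNA cultures at 31.6, 23.4 and 45.0 CPM, a log2 fold change of -2.36 ± 0.20 (standard error). The knockdown was thus present in all 3 treated cultures, and weakest in replicate 3. Of 10 fibroblast markers, 8 were tested and 7 were lower after Yme1l siRNA, against 29.6% of all loci tested. The summed level of the 10 was 33640 to 40780 CPM in Scr and 18060 to 22440 CPM in Yme1l siRNA cultures. *Thy1* and *Lum* did not reach the count needed for a test. Markers of other cell types, without *Cd68*, summed to 0.403 to 0.637 CPM in Scr and 1.73 to 1.96 CPM in Yme1l siRNA cultures. *Adgre1*, *Myod1* and *Sox10* were at 0. Of the 11 markers of other cell types, *Cd68* included, 3 were tested, and *Krt8* was the only one called higher. It had 1 count in each Scr culture and 24, 31 and 23 in Yme1l siRNA cultures. *Krt8* thus reached the test only through the treated cultures, and no weight is placed on its call. *Cd68* itself stood at 46.8 and 42.8 CPM. The part of these shifts in the results below was not tested, and in bulk RNA fewer cells of a type cannot be told apart from less RNA per cell.

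After depletion of YME1L, 7 of the 10 mtDNA factors rose and 1 fell at an edgeR adjusted p below 0.05. The genes that rose were *Mgme1*, *Top1mt*, *Tfb1m*, *Twnk*, *Polrmt*, *Polg2* and *Ssbp1*, the gene that fell was *Tfb2m*, and *Tfam* and *Polg* did not pass the test. Changes of this kind were common in the whole table, where 58.0% of the loci tested were called, 28.4% as higher and 29.6% as lower. The median log2 fold change was 0.36 over the 10 genes and 0.01 over all loci, whereas the median size of the change regardless of sign was 0.43 and 0.42. In 6 genes all Yme1l siRNA cultures were above all Scr cultures and in 1 all were below, against 31.9% and 33.6% of all loci (65.4% in either direction). The typical size of a change was thus near that of the whole table, while most of the calls were upward, and no test was made of the list.

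**Figure D1:**
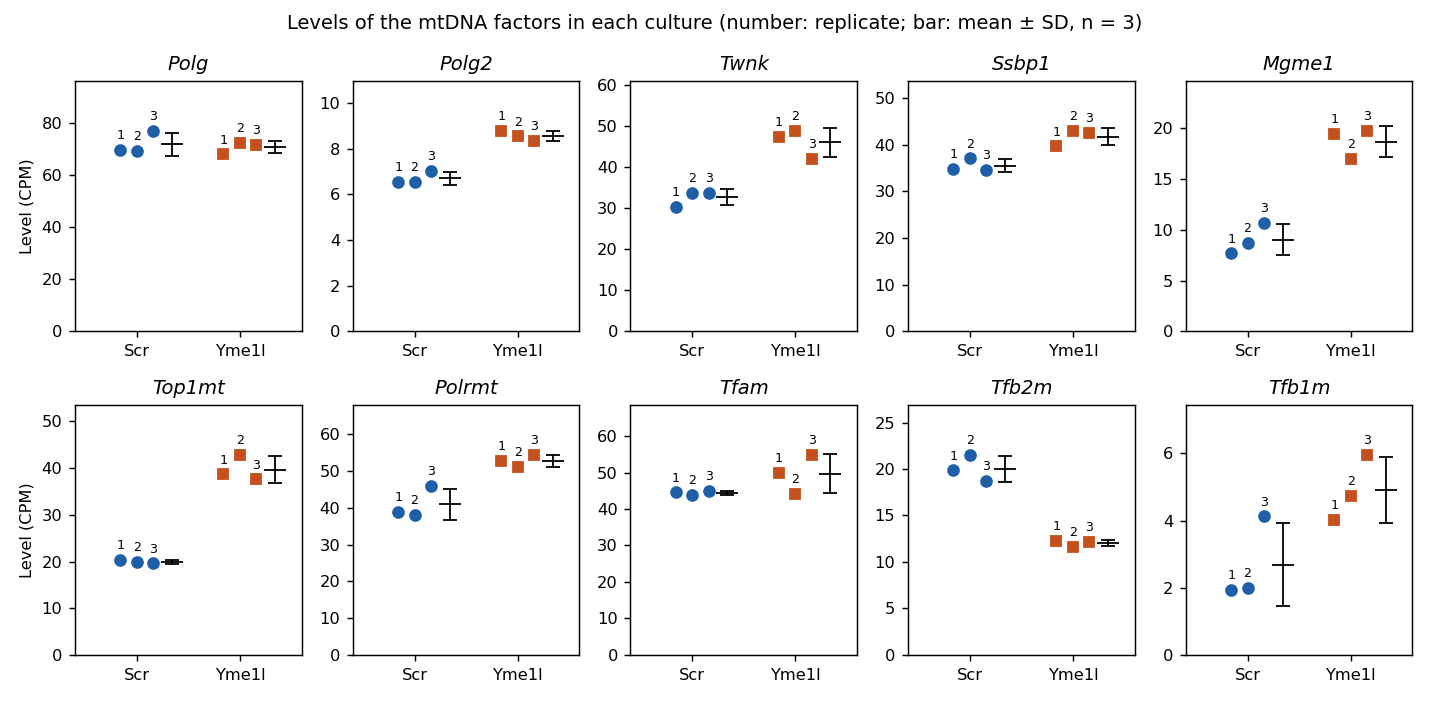
Level of each mtDNA factor in CPM (vertical axes start at 0 and differ between panels) in the 3 Scr and the 3 Yme1l siRNA cultures, with the replicate number beside each point and bars for mean ± SD (n = 3). *Mgme1* and *Top1mt* rise to 2.07 and 1.99 times their Scr mean, *Tfb2m* falls in every culture, and the groups overlap for *Polg*, *Tfam* and *Tfb1m*.

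The catalytic and accessory subunits of the mtDNA polymerase changed unequally. *Polg*, on chromosome 7 (79446231-79466362, minus strand), encodes the catalytic subunit and was measured at 69.6, 69.2 and 77.0 CPM in Scr and at 68.0, 72.6 and 71.8 CPM in Yme1l siRNA cultures. The groups overlapped and the log2 fold change was -0.02 ± 0.07 (edgeR adjusted p = 0.795). Of all loci tested, 96.9% changed more than *Polg* did, and leaving out any culture kept its log2 fold change between -0.06 and 0.02. *Polg2* (chromosome 11, 106768253-106779537, minus strand) encodes the accessory subunit that holds the polymerase on DNA. Its level was lower, at 6.54, 6.54 and 7.02 CPM in Scr and 8.77, 8.54 and 8.35 CPM in Yme1l siRNA cultures. Here the cultures within a group lay close together and the groups did not overlap, with a log2 fold change of 0.35 ± 0.11 (edgeR adjusted p = 0.0202). That call was lost without Scr replicate 1 (adjusted p = 0.0690 by edgeR), without Scr replicate 2 (0.0673) or without Yme1l siRNA replicate 1 (0.0733), while the fold change stayed between 0.33 and 0.39.

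The helicase and the single-strand binding protein, which work with the polymerase at the fork, both rose. *Twnk* (chromosome 19, 45005663-45012762, plus strand) was at 30.3, 33.8 and 33.7 CPM in Scr and at 47.3, 48.7 and 41.8 CPM in Yme1l siRNA cultures. Its lowest treated culture was well above its highest control, the mean was 1.41 times that of Scr, and the log2 fold change was 0.50 ± 0.08 (edgeR adjusted p = 0.00106). The call held with each culture left out. *Ssbp1* (chromosome 6, 40471352-40484700, plus strand) was at 34.8, 37.0 and 34.5 CPM in Scr and at 39.6, 42.9 and 42.5 CPM in Yme1l siRNA cultures. With a log2 fold change of 0.23 ± 0.07 (edgeR adjusted p = 0.0171) this was the smallest change among the genes called, and 69.8% of all loci changed more. It passed the threshold neither without Scr replicate 1 (edgeR adjusted p = 0.0716) nor without Scr replicate 3 (0.0505).

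The largest rises were those of the nuclease and the topoisomerase. *Mgme1*, the exonuclease gene on chromosome 2 (144270663-144281227, plus strand), was counted at 7.67, 8.70 and 10.7 CPM in Scr and at 19.4, 17.0 and 19.7 CPM in Yme1l siRNA cultures. Every treated culture exceeded the highest control, at a mean 2.07 times that of Scr and a log2 fold change of 1.05 ± 0.14 (edgeR adjusted p = 0.000275). *Top1mt* (chromosome 15, 75657035-75678800, minus strand), whose product relaxes supercoiled mtDNA, was at 20.3, 19.9 and 19.6 CPM in Scr and at 38.7, 42.9 and 37.6 CPM in Yme1l siRNA cultures. The controls differed little from each other and none approached the treated cultures, so that the change (log2 fold change 0.99 ± 0.08, edgeR adjusted p = 2.39e-05) had the smallest p among the 10 genes, at place 394 of all loci. Changes larger than these were found in 14.8% of loci for *Mgme1* and 16.4% for *Top1mt*. Both calls held with each culture left out. The nuclear enzyme gene *Top1*, measured for comparison, was at 139, 134 and 140 CPM in Scr and 118, 105 and 136 CPM in Yme1l siRNA cultures and was not called (log2 fold change -0.21 ± 0.10, edgeR adjusted p = 0.0919).

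Of the factors that start transcription, the polymerase gene rose, *Tfam* was not called and *Tfb2m* fell. *Polrmt* (chromosome 10, 79736123-79746581, minus strand) was at 39.0, 38.1 and 45.9 CPM in Scr and at 52.7, 51.2 and 54.4 CPM in Yme1l siRNA cultures. Scr replicate 3 stood above the other controls but below every treated culture, and the log2 fold change of 0.36 ± 0.08 (edgeR adjusted p = 0.00533) passed the test with each culture left out. *Tfam* (chromosome 10, 71225464-71238280, minus strand), the gene of the packaging protein, was at 44.5, 43.9 and 44.9 CPM in Scr and at 49.8, 44.2 and 54.9 CPM in Yme1l siRNA cultures. The controls were nearly equal, whereas the treated cultures spread from the level of the controls to well above them in replicate 3. Its log2 fold change was 0.16 ± 0.08 (edgeR adjusted p = 0.135). Yme1l siRNA replicate 2 decided this result, since *Tfam* passed the test without it (0.24, adjusted p = 0.0235 by edgeR), and the log2 fold change was 0.08 without replicate 3.

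The related genes *Tfb2m* and *Tfb1m* moved in opposite directions. *Tfb2m* (chromosome 1, 179528055-179546267, minus strand), whose product opens the promoter DNA for POLRMT, was at 19.8, 21.5 and 18.7 CPM in Scr and at 12.3, 11.6 and 12.2 CPM in Yme1l siRNA cultures. All treated cultures lay below all controls, at 0.602 times the Scr mean (log2 fold change -0.73 ± 0.09, edgeR adjusted p = 0.000202), and the call held with each culture left out. *Tfb1m* (chromosome 17, 3519256-3557781, minus strand) encodes a relative of TFB2M that acts mainly as a methyltransferase of the ribosomal RNA of the small mitochondrial subunit. It was the lowest of the 10 genes, at 1.94, 2.00 and 4.12 CPM in Scr and 4.01, 4.74 and 5.96 CPM in Yme1l siRNA cultures. Scr replicate 3, with 174 counts against 84 and 72 in the other controls, lay above the lowest treated culture (178 counts in a library of larger scaled size), so the groups overlapped. The log2 fold change was 0.86 ± 0.30 (edgeR adjusted p = 0.0377), and it was 1.31 without Scr replicate 3. This call was lost without Scr replicate 1 (edgeR adjusted p = 0.120), Scr replicate 2 (0.127), Yme1l siRNA replicate 2 (0.0647) or Yme1l siRNA replicate 3 (0.0920).

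**Figure D2:**
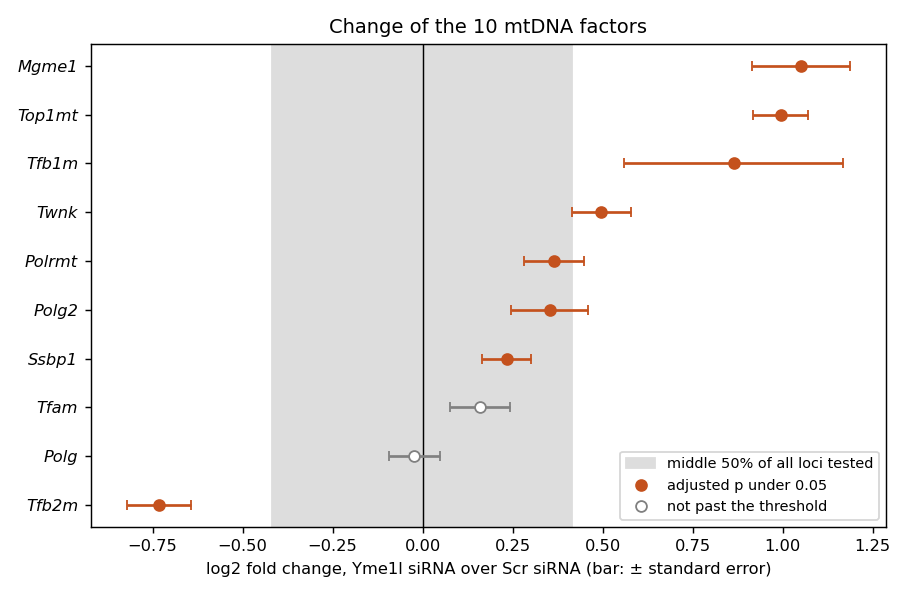
Log2 fold change of the 10 mtDNA factors, Yme1l siRNA over Scr siRNA, from edgeR, with bars for ± 1 standard error and a grey band for the middle 50% of all loci tested. *Mgme1*, *Top1mt* and *Tfb1m* lie far to the right of the band, *Tfb2m* lies to its left at -0.73, and *Ssbp1*, *Tfam* and *Polg* lie inside it.

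**Figure D3:**
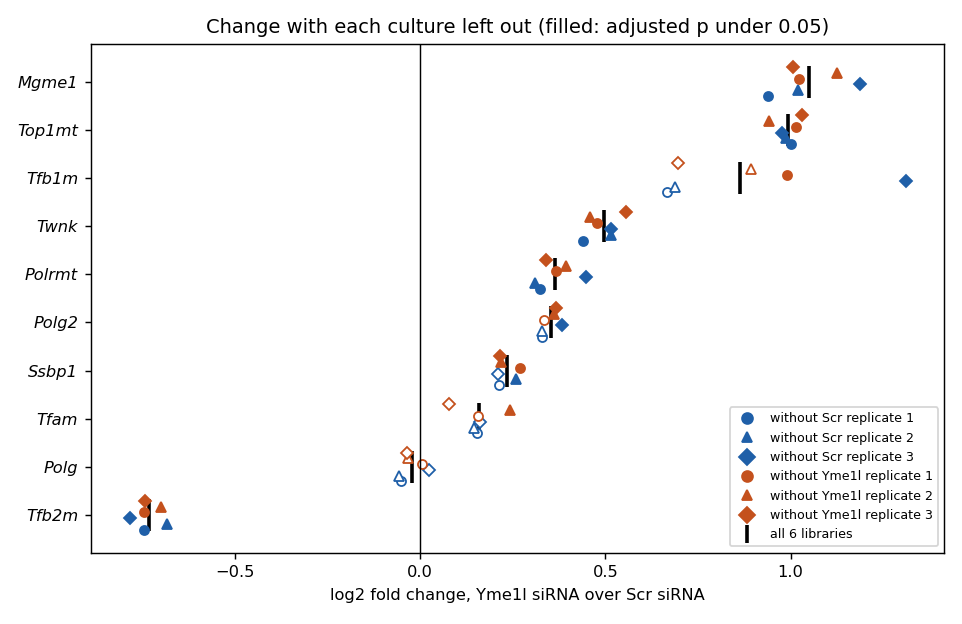
Log2 fold change of each factor (horizontal axis) with 1 culture left out at a time, where filled symbols passed the test and the vertical tick is the value from all 6 libraries. The direction of the 8 called genes never changed, *Tfb1m* ranged from 0.67 to 1.31, and open symbols show which cultures the calls of *Polg2*, *Ssbp1* and *Tfb1m* need.

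The controls did not vary alike from gene to gene. Scr replicate 3 was the highest control for *Tfam*, *Polg*, *Polg2*, *Polrmt*, *Tfb1m* and *Mgme1*, and the coefficient of variation among Scr cultures was 46.4% for *Tfb1m* and 17.2% for *Mgme1*, but 1.15% for *Tfam* and 1.77% for *Top1mt*. Among the Yme1l siRNA cultures it was again highest for *Tfb1m*, 10.7% for *Tfam* and at most 8.17% for the others. The largest relative spread thus fell on *Tfb1m*, the gene with the fewest counts.

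To compare genes with each other, the CPM was divided by a median transcript length in kilobases. That median was taken over the protein-coding GENCODE transcripts tagged both as basic and as having a consensus coding sequence. In Scr cultures *Ssbp1* had the highest level, 31.5 ± 1.22 CPM per kilobase (SD, n = 3), followed by *Polrmt* (10.9 ± 1.13), *Tfam* (10.7 ± 0.122) and *Top1mt* (10.5 ± 0.185), whose neighbouring ranges overlapped. *Twnk* (9.34 ± 0.565) and *Polg* (9.18 ± 0.560) also overlapped, and below them stood *Tfb2m* (8.17 ± 0.586), *Polg2* (4.45 ± 0.183), *Mgme1* (3.83 ± 0.656) and *Tfb1m* (1.92 ± 0.888), of which *Polg2* and *Mgme1* overlapped. The place of *Ssbp1* depends on the transcript counted, since its level was 8.06 CPM per kilobase with the longest of these transcripts and 38.0 with the shortest. Only *Ssbp1* (4 transcripts) and *Mgme1* (3) had more than 1 such transcript, so for the other members the effect of transcript length was not tested. In Yme1l siRNA cultures *Top1mt* (20.9 ± 1.47) stood second after *Ssbp1* (37.0 ± 1.59), *Mgme1* (7.93 ± 0.648) was above *Polg2* (5.68 ± 0.139), and *Tfb2m* (4.92 ± 0.143) was below both. Only *Tfb1m* (3.50 ± 0.700) was lower than *Tfb2m* in these cultures. The remaining order was *Polrmt* (14.1 ± 0.427), *Twnk* (13.2 ± 1.04), *Tfam* (11.9 ± 1.28) and *Polg* (9.03 ± 0.310), in which *Polrmt* and *Twnk*, and *Twnk* and *Tfam*, did not differ beyond their ranges.

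The balance between partners was followed as the difference of log2 CPM between 2 genes of the same culture, which library size cannot change. CPM is not divided by transcript length here, so the size of a difference does not rank the 2 genes. Only its change between the groups was compared. The 5 pairs were compared by a two-sided exact permutation test, which with 3 against 3 cultures cannot go below 0.1. *Polg* exceeded its accessory subunit gene *Polg2* by 3.42 ± 0.03 (log2, SD, n = 3) in Scr and by 3.04 ± 0.08 in Yme1l siRNA cultures, a change of -0.37 (exact permutation p = 0.1, 0.125 after adjustment over 5 pairs). *Tfb2m* exceeded *Tfb1m* by 2.96 ± 0.69 in Scr and by 1.31 ± 0.29 in Yme1l siRNA cultures, a change of -1.66 with the same p. The difference of *Top1mt* from *Top1* went from -2.79 ± 0.04 to -1.58 ± 0.28, and that of *Ssbp1* from *Polg* from -1.02 ± 0.13 to -0.76 ± 0.01, with the same p again. In each of these 4 pairs the groups did not overlap, which for single loci held in 65.4% of all tested. *Polg2*, *Tfb2m*, *Top1mt* and *Ssbp1* were each apart on their own as well. The share over all possible pairs of genes was not computed. For *Tfam* and *Polrmt*, the factors that package and transcribe mtDNA, the difference was 0.12 ± 0.13 in Scr and -0.09 ± 0.11 in Yme1l siRNA cultures, and the groups overlapped (exact permutation p = 0.2, adjusted 0.2).

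**Figure D4:**
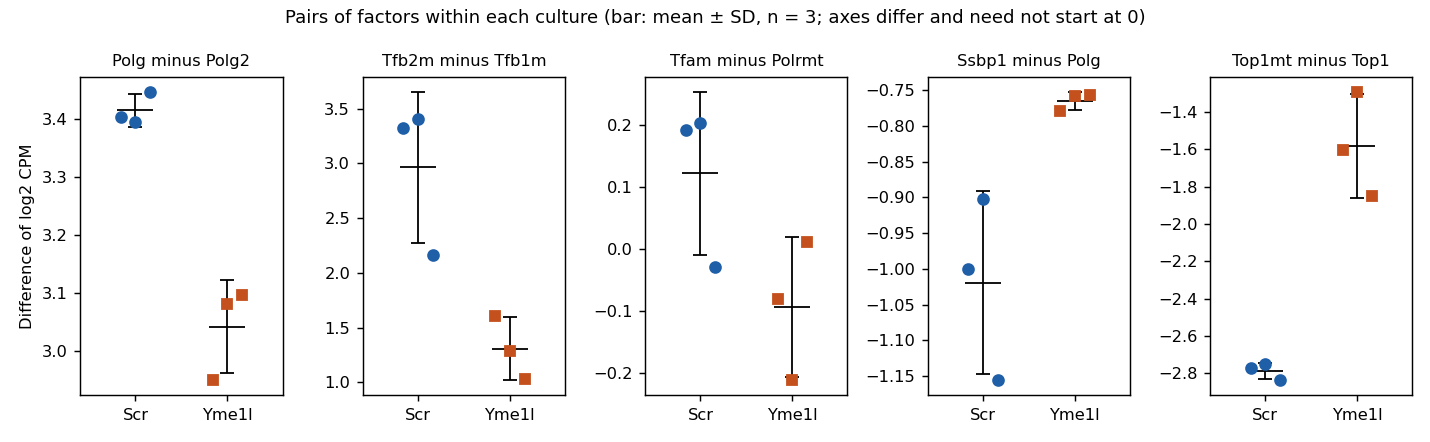
Difference of log2 CPM between the paired genes in each culture (vertical axes differ and need not start at 0), with bars for mean ± SD (n = 3). The groups separate in every pair but *Tfam* minus *Polrmt*, and the widest step, -1.66, is that of *Tfb2m* minus *Tfb1m*.

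Several of these genes share sequence with neighbours or copies, and the sources do not say how the counting used the strand or reads that match several places. The last exons of *Polg* overlap *Fanci*, on the opposite strand, over 921 bases (8.57% of its exonic bases), and *Fanci* itself rose from 16.6 to 33.1 CPM (log2 fold change 0.99). *Twnk* overlaps *Mrpl43* over 507 bases (12.6%), which was at 46.2 and 41.5 CPM (log2 fold change -0.15, edgeR adjusted p = 0.0689). *Mgme1* overlaps *Snx5* over 206 bases, which was at 162 CPM in both groups. *Tfb1m* overlaps *Tiam2* over 142 bases, with *Tiam2* at 100 and 87.0 CPM and a log2 fold change of -0.20 (edgeR adjusted p = 0.0765), and the overlaps of *Polg2* with *Milr1* and of *Top1mt* with *Gm15945* concern loci that did not pass the filter on counts. *Tfb2m* has a pseudogene copy on chromosome 12, *Gm1818*, that is 99.3% identical over 1187 bases and was lower as well, from 2.64 to 1.56 CPM (log2 fold change -0.75, edgeR adjusted p = 0.0110). How reads were assigned between the 2 loci is not given in the sources used here. *Polg2* has stretches of 151 to 191 bases at 95.1% to 96.0% identity to *Mtg2*, *Mpv17l*, *Trpm2*, *Gm10499*, *Gm37065* and *C030017G13Rik*. *Ssbp1* has a copy of 447 bases, *Gm12115*, at 97.8% identity, with at most 42 counts in a library.

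The profile of each gene over the 6 libraries was also matched to 9806 other loci whose log2 CPM averaged 3 or more. Since the groups separate, a high correlation mostly reflects the difference between them, and 2116 loci had a Pearson r over 0.9 with *Top1mt*, 1706 with *Mgme1* and 2474 with *Tfb2m*. The profiles closest to *Mgme1* were those of *Arhgap11a*, *Wrnip1* and *Mthfd2*, to *Top1mt* those of *Wdr45b*, *H2afy* and *Creld2*, and to *Tfb2m* those of *Eci2*, *Surf1* and *Golt1b*. The profile of *Tfam* was shared by fewer loci (206 over 0.9), with *Spats2*, *Cs* and *Samm50* closest. *Polg* had 14 such loci, led by *Fn3krp*, *Ostm1* and *Slc35b4*. All of these are descriptions over 6 libraries that share their scaling.

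Other proteins that act on mtDNA or its transcripts were read from the same fit, in lists by function. Of 15 genes of replication partners, repair enzymes and nucleases, 6 rose and 3 fell, against 28.4% and 29.6% of all loci tested. The median log2 fold change was 0.16. The 3 with the smallest p were *Dna2*, a nuclease and helicase that also works in the nucleus (5.80 ± 1.61 to 25.7 ± 1.6 CPM, log2 fold change 2.14 ± 0.18), the flap endonuclease gene *Fen1* (67.1 ± 4.53 to 121 ± 5.86 CPM, 0.85 ± 0.08) and the uracil glycosylase gene *Ung* (9.58 ± 1.10 to 16.8 ± 0.213 CPM, 0.81 ± 0.11). All 3 also serve nuclear DNA. The 3 that fell, named after their values were seen, were the ligase gene *Lig3* (-0.76 ± 0.14), the primase-polymerase gene *Primpol* (-0.69 ± 0.13) and the topoisomerase gene *Top2b* (-0.55 ± 0.12). Of these named genes, each held its call with any culture left out.

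Among 8 genes of transcription elongation and termination, 1 rose and 3 fell, against 28.4% and 29.6% of all loci tested. The median log2 fold change was -0.14. The one that rose was *Mrpl12*, a ribosomal protein that also binds POLRMT (76.5 ± 4.05 to 119 ± 4.65 CPM, log2 fold change 0.63 ± 0.07). Those that fell were the termination-factor relative *Mterf2* (8.27 ± 0.977 to 4.71 ± 0.270 CPM, -0.81 ± 0.13), the elongation factor gene *Tefm* (12.7 ± 0.559 to 10.1 ± 0.941 CPM, -0.33 ± 0.11, edgeR adjusted p = 0.0241) and *Mterf1b* (-0.91 ± 0.33, edgeR adjusted p = 0.0413). The call of *Tefm* was lost without Scr replicates 2 or 3 or Yme1l siRNA replicates 1 or 2 (edgeR adjusted p from 0.0505 to 0.0715). That of *Mterf1b*, which stood near 1 CPM, was lost without Scr replicates 1 or 2 or Yme1l siRNA replicates 1 or 2 (0.0617 to 0.185), and its log2 fold change was -0.52 without Scr replicate 1.

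Of 17 genes of RNA processing and decay, 10 rose and 3 fell, against 28.4% and 29.6% of all loci tested. The median log2 fold change was 0.33. *Trmt10c*, a subunit of mitochondrial RNase P, went from 30.1 ± 1.22 to 59.8 ± 2.54 CPM (log2 fold change 0.99 ± 0.07, edgeR adjusted p = 1.43e-05). *Tbrg4* (0.67 ± 0.06) and *Fastkd2* (0.76 ± 0.09), both of the FASTK family of mitochondrial RNA-binding proteins, followed by p. The genes that fell, named after their values were seen, were *Prorp*, the catalytic subunit of the same RNase P (-0.51 ± 0.13), *Fastk* (-0.24 ± 0.07) and *Hsd17b10*, another of its subunits (-0.23 ± 0.08, edgeR adjusted p = 0.0301). The call of *Hsd17b10* was lost with any 1 culture left out other than Scr replicate 3 (edgeR adjusted p from 0.0517 to 0.103). The subunits of this enzyme thus differed in direction.

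Of 6 genes of nucleoid scaffold and protein turnover, 5 rose and 0 fell, against 28.4% and 29.6% of all loci tested. The median log2 fold change was 0.34. *Atad3a*, an inner membrane ATPase near nucleoids, went from 34.1 ± 2.14 to 59.4 ± 1.65 CPM (log2 fold change 0.80 ± 0.07), the prohibitin gene *Phb* from 112 ± 7.30 to 193 ± 7.28 CPM (0.79 ± 0.07), and *Lonp1*, the matrix protease that degrades TFAM, from 223 ± 17.3 to 292 ± 12.2 CPM (0.38 ± 0.08). *Phb2* (0.30 ± 0.07) and *Clpx* (0.21 ± 0.07, edgeR adjusted p = 0.0278) were the others that rose, and *Clpp* was at 49.3 and 52.5 CPM (0.09 ± 0.07). The call of *Clpx* was lost without Scr replicates 1 or 2 or Yme1l siRNA replicates 1 or 3 (0.0762 to 0.115).

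The regulators of these nuclear genes moved both ways, with 7 of 12 higher and 4 lower, against 28.4% and 29.6% of all loci tested. The median log2 fold change was 0.36. *Myc* rose from 109 ± 11.2 to 221 ± 12.2 CPM (log2 fold change 1.02 ± 0.09) and the coactivator gene *Ppargc1a* from 8.87 ± 1.51 to 19.3 ± 0.526 CPM (1.12 ± 0.13), whereas *Creb1* fell from 53.5 ± 1.56 to 27.9 ± 4.13 CPM (-0.94 ± 0.10). *Gabpa*, the ETS-family subunit for whose motif the promoters above were searched, fell from 87.6 ± 2.84 to 60.6 ± 11.6 CPM (-0.53 ± 0.13, edgeR adjusted p = 0.00691), and its partner *Gabpb1* rose from 26.3 ± 1.46 to 34.1 ± 3.63 CPM (0.37 ± 0.09). *Nrf1* rose from 37.7 ± 2.90 to 48.5 ± 1.75 CPM (0.36 ± 0.08). *Gabpa*, *Gabpb1* and *Nrf1* were named after their values were seen, as were the others that fell, *Esrra* (-0.37 ± 0.10) and *Yy1* (-0.23 ± 0.07). The call of *Esrra* was lost without Scr replicate 2 or Yme1l siRNA replicate 1 (edgeR adjusted p = 0.0562 and 0.0640), and that of *Yy1* without Scr replicates 1 or 2 or Yme1l siRNA replicates 1 or 2 (0.0506 to 0.0642). The 6 members with the CCGGAAG letters changed by -0.02 to 0.50 (log2). Those without them, *Tfb1m*, *Tfb2m* and *Mgme1*, changed by 0.86, -0.73 and 1.05, and *Top1mt*, with no listed promoter, by 0.99. This contrast was noticed after the values were seen and was not tested. The call of *Tfb1m* was lost without some single cultures.

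The transcripts made from mtDNA were read as the products of this machinery, within the limits of poly(A) selection. The 13 protein-coding genes lie at 10 loci. Of these 10, 2 were higher (*mt-Nd1* and *mt-Nd2*) and 4 lower (*mt-Co1*, *mt-Co2*, *mt-Nd5* and *mt-Cytb*), against 28.4% and 29.6% of all loci tested. At 7 of the 10 loci at least 1 gene has an annotated near-identical copy in the nuclear genome that could take or add reads. For *mt-Nd1*, *mt-Cytb* and *mt-Nd6* no such copy was found among annotated transcripts. The rest of the nuclear genome was not searched. At several loci with a copy, Scr replicate 3 stood far below the other controls. *mt-Co2* was at 5322, 4388 and 184 CPM in Scr and at 5.39, 4.46 and 5.46 CPM in Yme1l siRNA cultures, while its copy *Gm28661* on chromosome 1 went the other way, with 2.26, 3.24 and 3.20 CPM in Scr and 244, 1362 and 1889 CPM in Yme1l siRNA cultures. The locus that joins *mt-Co3*, *mt-Atp6* and *mt-Atp8* was at 9269, 7766 and 476 CPM in Scr and at 3.99, 883 and 4.37 CPM in Yme1l siRNA cultures and was not called. *mt-Nd3* (406, 316 and 12.4 CPM) and *mt-Nd4* (2697, 2300 and 1109 CPM) were also lowest in Scr replicate 3 among the controls, and how reads were shared between these loci and their copies was not tested. The call of *mt-Nd2* was lost with any 1 culture left out other than Yme1l siRNA replicate 2 (edgeR adjusted p from 0.0619 to 0.133). *mt-Nd1* was at 2492, 2496 and 2133 CPM in Scr and at 2997, 2731 and 3387 CPM in Yme1l siRNA cultures (log2 fold change 0.36 ± 0.11, edgeR adjusted p = 0.0205), with every treated culture above every control. That call was lost without Scr replicate 3 (edgeR adjusted p = 0.0576) or Yme1l siRNA replicate 1 (0.0524). *mt-Cytb*, the distal gene of the same strand, was at 3806, 4256 and 3460 CPM in Scr and at 2620, 2546 and 3018 CPM in Yme1l siRNA cultures, all below the controls (-0.49 ± 0.11, edgeR adjusted p = 0.00440). *mt-Nd6*, the one protein gene of the other strand, stood at 16.4, 23.2 and 19.2 CPM in Scr and at 25.7, 11.4 and 27.9 CPM in Yme1l siRNA cultures. These groups overlapped (0.14 ± 0.29, edgeR adjusted p = 0.692), and single cultures decided the value, with a log2 fold change of 0.46 (adjusted p = 0.0261 by edgeR) without Yme1l siRNA replicate 2 and of -0.08 (0.829) without Yme1l siRNA replicate 3. The mtDNA transcripts thus did not move in 1 direction.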

How the data were processed

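The RNA-Seq libraries were mapped to groups by their labels. Per the labels and methods, the authors aligned reads to GRCm38 with HISAT2 2.0.4, assembled transcripts with StringTie 1.3.3 and compared groups with Cuffdiff 2.2.1. The counting program is not given in the sources used here. The authors deposited raw counts per locus. Their comparison table, which was not used, holds group FPKM values, log2 fold changes, a test statistic (score), p-values and q-values as deposited by the authors.

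Counts were compared with edgeR 4.0.16 in R 4.3.3 (TMM, filterByExpr, quasi-likelihood test, Benjamini-Hochberg adjustment over 14499 loci, threshold 0.05). The filter asked for about 10 counts, scaled by library size, in at least 3 libraries, and for 15 counts in total. Library totals were 37260605 to 45205207 counts, and the biological coefficient of variation was 0.131. Log2 CPM for gene pairs and profiles used a prior count of 2. The fitting step was run on simulated data in which far fewer loci changed than were called here. That run therefore gives no error rate for these data. Gene models came from GENCODE M21 and promoters from RefSeq. Near-identical copies came from BLAST 2.17.0 against the GENCODE transcripts (at least 95% identity over 150 bases).

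The members and lists were chosen with earlier results of these data known. Named were all members, *Yme1l1*, *Top1*, genes overlapping a member and the 3 smallest adjusted p per list. Also named were mtDNA-encoded genes without an annotated near-identical nuclear copy and the 3 closest profiles. Alternatives were DESeq2 1.42.0, limma-voom (limma 3.58.1), other scale factors, filters and thresholds, a replicate block and leaving out each library, and, added after seeing the data, other transcript lengths.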

Additional observations from a re-analysis of the deposited data

How the results depend on the processing

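No result changed sign among the genes called, and DESeq2, limma-voom, other scale factors and the removal of mtDNA loci each gave 7 members higher and 1 lower. At an adjusted p of 0.01, 4 members were higher. Under that threshold the lower calls were 1 for elongation and termination, 1 for RNA processing and decay and 2 for the nuclear regulators, and 0 mtDNA-encoded loci were higher. With all loci of at least 1 count, *Polg2* lost its call (edgeR adjusted p = 0.0506), and 7 mtDNA-encoded loci were lower. Leaving out 1 library gave 4 to 7 members higher, with 4 without Scr replicate 1, and a median log2 fold change of the members from 0.32 (without Scr replicate 2) to 0.42 (without Scr replicate 3). It gave 1 to 4 lower calls for elongation and termination (1 without Scr replicate 2 or Yme1l siRNA replicates 1 or 2), 2 to 4 for the regulators (2 without Scr replicate 2 or Yme1l siRNA replicate 1) and 0 to 3 higher calls among mtDNA-encoded loci (0 without Scr replicate 3 or Yme1l siRNA replicate 1, 3 without Yme1l siRNA replicate 2). The fits with fewer libraries have fewer degrees of freedom, and the cause of single lost calls was not tested.

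With the replicate number as a block, 7 members were higher and 1 lower, and the members' median was 0.36, but 1 mtDNA-encoded locus was higher and 7 were lower, and *Mterf1b* lost its call (edgeR adjusted p = 0.0593), as it did under limma-voom (0.0651). The numbers share no stated origin. Deviations of same-numbered libraries from their group means correlated at 0.0409, 0.116 and 0.192. Differently numbered libraries were not compared in this way, so these values do not decide whether the cultures were paired. With the block, 4227 of all loci were higher and 4460 lower, against 4123 and 4288 without it. Gene pairs kept their direction under the block, where the sign-flip test cannot go below 0.25, and with a prior count of 0.5. Without mtDNA loci the mtDNA-encoded list has no value. The median of all loci moved by at most 0.0193 (log2) under another scaling and by 0.0325 with only loci of a mean of at least 50 counts.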
